A study of Mus musculus with 4 samples.

Results

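The genes described here are the mouse p53 gene Trp53 and 9 genes that p53 switches on after DNA damage and other stress, namely Mdm2, Ccng1, Trp53inp1, Sesn1, Sesn2, Zmat3, Phlda3, Aen and Btg2. They were chosen by name, as the count rows whose Ensembl identifier maps to these symbols, and make up 10 of the 43629 identifiers counted in each library. Each symbol mapped to a single identifier, and 10 of 10 genes passed the expression filter of the test, which 17022 genes passed.

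The libraries hold poly(A) RNA of mouse embryonic stem cells, labelled as blastocyst cells of 129/Ola background kept in serum plus LIF, a cytokine that keeps such cells undifferentiated. Knockout library 1 (KO1) comes from Drosha knockout cells that lack the proline-rich region of the protein, and knockout library 2 (KO2) from cells that lack the arginine- and serine-rich region. Both are labelled passage 7, and their titles bear a mark d5 that the labels leave undefined. The wild-type libraries are E14 cells at passage 33 (WT1) and at passage 42 (WT2), and their labels call both re-used. Passage, library origin and the d5 mark run together with genotype and cannot be told apart. The labels do not state separate cultures or clones within a group, so that the spread behind the p-values is that of these libraries alone and may be technical.

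Total counts were 29264632 (KO1), 42322129 (KO2), 40139219 (WT1) and 39657578 (WT2), and the lowest count of any of the 10 genes in a library was 519. Levels are given as CPM, read counts relative to library size, scaled by the TMM method, with SD over n = 2 libraries a group, and log2 fold changes of KO over WT carry their SE. Drosha itself stood at 157.7 and 158.3 CPM in the KO1 and KO2 libraries, against 364.0 and 356.7 CPM in the WT1 and WT2 libraries (log2 fold change -1.19 ± 0.11 SE, edgeR adjusted p = 0.0482). After removal of each library's GC and length trends the change was -1.35 ± 0.095 (SE), with an edgeR adjusted p of 0.092. This call was lost while its direction was kept, and 0 of all genes tested were called in that setting. Before that step 0.0482 was the smallest edgeR adjusted p of any gene. Counts per gene do not show the deletions themselves. Markers of pluripotent cells summed to 6390 CPM (KO1), 6490 CPM (KO2), 5638 CPM (WT1) and 6844 CPM (WT2), and none of the 8 was at 0 in any library. Some single markers differed more than these sums. In the same order of libraries Klf4 stood at 150.9, 143.5, 151.4 and 534.6 CPM, and Sox2 at 468.3, 465.9, 319.9 and 648.8 CPM. Pou5f1 stood at 1132, 1110, 847.7 and 527.5 CPM, and Esrrb, which differed little, at 627.9, 621.8, 617.3 and 603.9 CPM. The counts are of bulk RNA, in which fewer cells of a type and less RNA per cell cannot be told apart.

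The p53 protein is a transcription factor that is kept scarce in unstressed cells, because MDM2 marks it for destruction and is itself a product of a p53 target gene. When DNA is damaged, kinases such as ATM phosphorylate p53, the protein accumulates, and it binds pairs of short repeats, called half-sites, in the promoters and introns of its targets. Embryonic stem cells are known for a high level of p53 protein held largely in the cytoplasm. DROSHA starts the maturation of most microRNAs, and the p53 pathway has microRNAs of its own, the miR-34 family, among its targets. Messenger RNA of Trp53 need not follow the amount or activity of the protein, and neither was measured here.

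Because p53 acts through its sites, the promoters were read for them first. RefSeq promoter windows on build GRCm38.p6, from 250 bases before a transcription start to 50 after it, were held for 8 of the 10 genes, as 10 windows, and Trp53inp1 and Zmat3 had none. A perfect match to the 10-letter p53 half-site consensus, on either strand, was found in 6 of these 10 windows and in 5 of 8 genes (Trp53, Mdm2, Ccng1, Sesn1 and Aen). The windows of Aen overlap and hold the same match, which is counted in each. Over all 32851 windows, 8.36% held one, a share of windows and not of genes. Stretches of 70 bases around 4 of the matches are shown on the strand of the gene, as these are the letters through which a target could be bound, with the matched letters in capitals.
Trp53, chr11:69580254-69580323, plus strand: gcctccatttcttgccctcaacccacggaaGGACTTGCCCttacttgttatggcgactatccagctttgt
Mdm2, chr10:117710905-117710974, minus strand: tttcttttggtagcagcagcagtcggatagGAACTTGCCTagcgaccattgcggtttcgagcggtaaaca
Ccng1, chr11:40755432-40755501, minus strand: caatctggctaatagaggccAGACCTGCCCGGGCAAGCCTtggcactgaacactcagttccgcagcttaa
Sesn1, chr10:41887236-41887305, plus strand: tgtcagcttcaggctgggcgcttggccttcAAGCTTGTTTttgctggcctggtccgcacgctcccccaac
In Ccng1 the capitals span 20 letters, because 2 half-sites lay next to each other with no spacer and 1 mismatch in all. A pair of half-sites with up to 1 mismatch and a spacer of up to 13 bases was found in 0.627% of all windows, and among the 10 windows of these genes only in that of Ccng1. The Sesn1 match lay before the second of its 2 starts, and the first start's window held none. The windows of Btg2, Phlda3 and Sesn2 held no perfect half-site. These matches describe the letters of short windows, and binding was not measured.

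In the comparison of knockout with wild-type cells, the one the design implies, none of the 10 genes passed the test. edgeR's quasi-likelihood test called 0 of 10, against 927 of 17022 genes (5.45%) with an adjusted p under 0.05, and at an unadjusted p under 0.05 it had 0 of 10, against 6320 genes (37.1%). DESeq2, which called 3851 of the 17022 genes, also called 0 of 10, with 0 at an unadjusted p under 0.05. The fitted log2 fold changes were above 0 for 5 genes and below 0 for 5, with a median of 0.10 for the 10 genes and -0.02 for all genes. Their adjusted p ran from 0.137 for Trp53 to 0.804 for Zmat3. The KO libraries were close to each other for every gene of the set, while the 2 WT libraries were not.

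**Figure D1:**
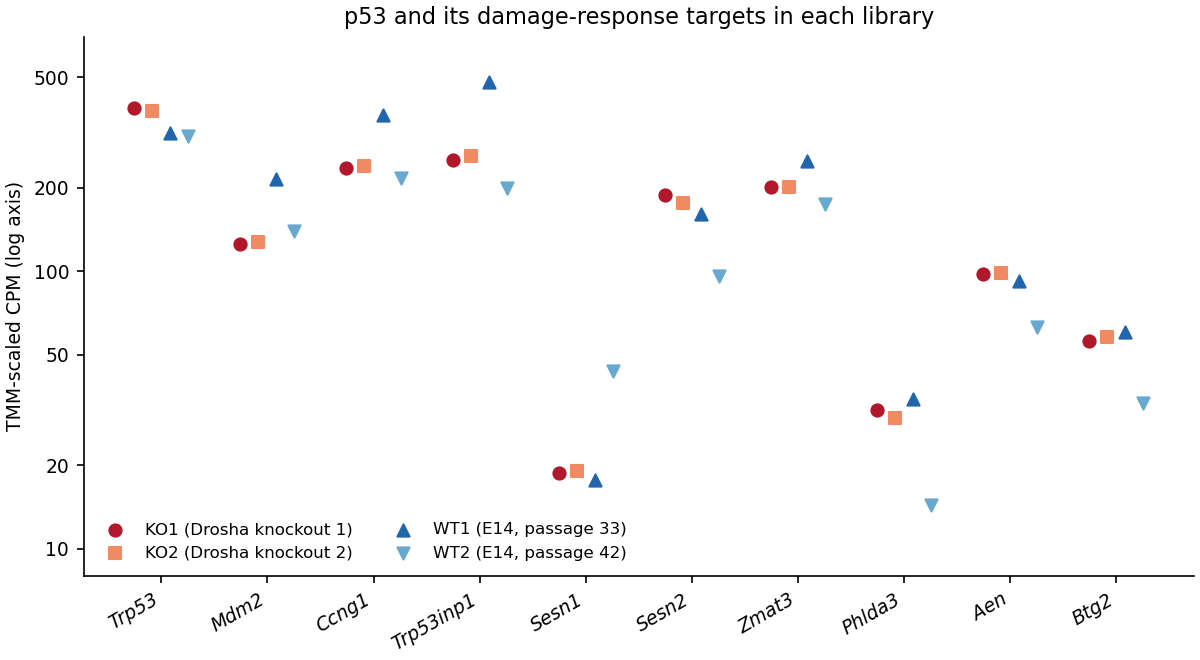
TMM-scaled CPM (log axis) of the 10 genes in each of the 4 libraries, with KO1 and KO2 to the left of WT1 and WT2, 1 point a library. The KO points nearly coincide for every gene, while the WT points are more than 2-fold apart for Trp53inp1, Sesn1 and Phlda3.

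Trp53 (ENSMUSG00000059552, chromosome 11, 69580359 to 69591873, plus strand, GRCm38) encodes p53 itself. It stood at 387.5 and 378.7 CPM in the KO1 and KO2 libraries, against 315.0 and 306.7 CPM in the WT1 and WT2 libraries. The KO mean was 383.1 ± 6.23 CPM and the WT mean 310.8 ± 5.88 CPM. Both KO libraries were thus above both WT libraries, and Trp53 was the gene of the set whose WT libraries lay closest together. The log2 fold change was 0.30 ± 0.11 (SE), with an unadjusted p of 0.0513 and an adjusted p of 0.137 in edgeR. With the GC and length trends of each library removed it was -0.03, and the direction was turned. A processed pseudogene, Trp53-ps, had 3 counts in KO1, 7 in KO2 and 0 in each WT library, too few to bear on the level of Trp53.

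Mdm2 (ENSMUSG00000020184, chromosome 10, 117688875 to 117710758, minus strand) encodes the ubiquitin ligase that holds p53 low. It stood at 125.3 and 127.2 CPM in the KO1 and KO2 libraries, against 214.9 and 139.5 CPM in the WT1 and WT2 libraries. Both KO libraries lay below both WT libraries, close to WT2 and well below WT1. The log2 fold change was -0.49 ± 0.24 (edgeR adjusted p = 0.212). With TMM scaling Mdm2 is the 1 gene of the set whose KO levels were below the WT range, but it lay between the WT libraries by library totals and with GC and length trends removed.

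Ccng1 (ENSMUSG00000020326, chromosome 11, 40748552 to 40755311, minus strand) encodes cyclin G, which recruits a phosphatase to MDM2 and so takes part in the same feedback. It stood at 236.3 and 239.0 CPM in the KO1 and KO2 libraries, against 365.5 and 216.9 CPM in the WT1 and WT2 libraries. Here the KO libraries lay between the WT libraries, nearer to WT2. The log2 fold change was -0.29 ± 0.28 (edgeR adjusted p = 0.476).

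Trp53inp1 (ENSMUSG00000028211, chromosome 4, 11156431 to 11174379, plus strand) encodes a stress-induced nuclear protein that promotes the phosphorylation of p53. It stood at 251.4 and 260.0 CPM in the KO1 and KO2 libraries, against 479.5 and 199.2 CPM in the WT1 and WT2 libraries. The KO mean was 255.7 ± 6.11 CPM and the WT mean 339.3 ± 198.2 CPM. Again the KO libraries lay between the WT libraries and nearer to WT2. The log2 fold change was -0.41 ± 0.44 (edgeR adjusted p = 0.529).

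The sestrins restrain the growth kinase complex mTORC1 and help to contain oxidative stress. Sesn1 (ENSMUSG00000038332, chromosome 10, 41809935 to 41908424, plus strand) stood at 18.7 and 19.02 CPM in the KO1 and KO2 libraries, against 17.63 and 43.74 CPM in the WT1 and WT2 libraries. Its KO levels lay between the WT libraries and near WT1, and WT2 stood alone above them (log2 fold change -0.70 ± 0.47, edgeR adjusted p = 0.323). Sesn2 (ENSMUSG00000028893, chromosome 4, 132492032 to 132510501, minus strand) is also a leucine sensor and a target of the amino acid stress response. It stood at 187.5 and 176.4 CPM in the KO1 and KO2 libraries, against 161.1 and 95.76 CPM in the WT1 and WT2 libraries. Both KO libraries were above both WT libraries, with WT2 far below the other three. The log2 fold change of Sesn2 was 0.50 ± 0.28 (edgeR adjusted p = 0.257). Without the GC and length trends it was -0.49. A small annotated gene in the span of Sesn2, Gm12981, shares no exon with it and had between 17 and 39 counts a library.

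Zmat3 (ENSMUSG00000027663, chromosome 3, 32334792 to 32366014, minus strand) encodes a zinc finger protein that binds RNA. It stood at 201.3 and 201.9 CPM in the KO1 and KO2 libraries, against 250.2 and 175.3 CPM in the WT1 and WT2 libraries, and had the largest adjusted p of the set (log2 fold change -0.08 ± 0.21). Phlda3 (ENSMUSG00000041801, chromosome 1, 135766119 to 135769136, plus strand) encodes a small lipid-binding protein that keeps the survival kinase AKT from the membrane. It stood at 31.6 and 29.68 CPM in the KO1 and KO2 libraries, against 34.62 and 14.41 CPM in the WT1 and WT2 libraries. Both genes had their KO libraries between the WT libraries. For Phlda3 they lay near WT1, and WT2 stood alone below them (log2 fold change 0.32 ± 0.45, edgeR adjusted p = 0.625). Phlda3 had a log2 fold change of -1.10 with GC and length trends removed, the widest turn of any gene in the set. Its transcripts also had the highest GC content of the 10 genes, 62.6%.

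Aen (ENSMUSG00000030609, chromosome 7, 78895854 to 78911209, plus strand) encodes a nuclease that cuts DNA in dying cells. It stood at 97.6 and 98.54 CPM in the KO1 and KO2 libraries, against 91.95 and 62.76 CPM in the WT1 and WT2 libraries. The KO libraries were above both WT libraries but within a small margin of WT1 (log2 fold change 0.34 ± 0.22, edgeR adjusted p = 0.308). Btg2 (ENSMUSG00000020423, chromosome 1, 134075170 to 134079120, minus strand) encodes an antiproliferative protein that binds the machinery removing poly(A) tails. It stood at 55.98 and 57.9 CPM in the KO1 and KO2 libraries, against 60.49 and 33.63 CPM in the WT1 and WT2 libraries. The KO libraries again lay between the WT libraries, near WT1 (log2 fold change 0.28 ± 0.31, edgeR adjusted p = 0.547).

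In all, both KO libraries lay above both WT libraries for 3 of the 10 genes (Trp53, Sesn2 and Aen), against 36.5% of genes tested, and below both for 1 (Mdm2), against 34.8%. These 4 of 10 outside the WT range stand beside 71.2% of all genes tested. For the other 6 genes both KO libraries lay between the WT libraries, against 18.4% of genes tested. These places are those of TMM-scaled CPM. After removal of the GC and length trends, 5 of the 10 genes had another place: Trp53 and Mdm2 lay between the WT libraries, Sesn2 and Phlda3 below both and Zmat3 above both. Aen was then the 1 gene that kept its place outside the WT range. Its margin was small, with log2 ratios to WT1 of 0.015 in KO1 and 0.04 in KO2. Zmat3 was likewise only just above WT1, at 0.024 in KO1 and 0.024 in KO2. The shares describe where this short list falls and are no test of it.

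**Figure D2:**
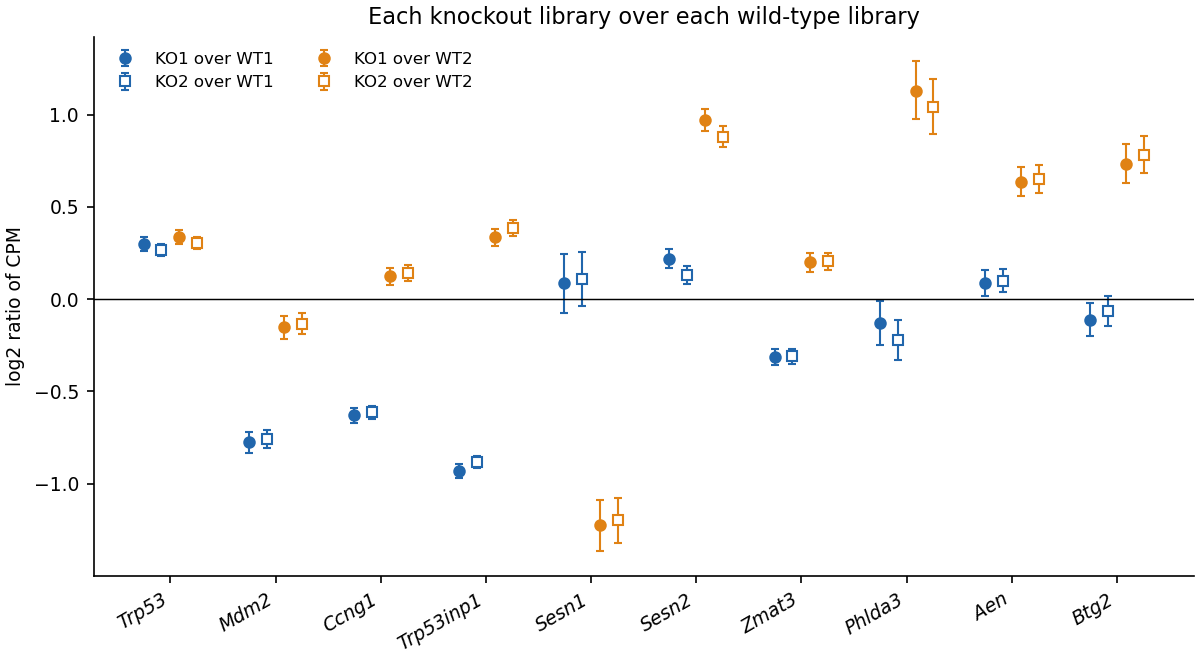
Log2 ratio of CPM (prior count of 2) for each of the 10 genes in KO1 and KO2 over WT1 (blue) and over WT2 (orange), with 95% counting intervals. Ratios to WT1 and to WT2 fall on opposite sides of 0 for 6 genes, while for Trp53, Sesn2 and Aen all 4 ratios are above 0 and for Mdm2 all 4 are below it.

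Each KO library was then compared with each WT library alone, as log2 ratios with no test, since single libraries have no replicate error. Against WT1, 6 of the 10 genes had a ratio below 0 in KO1 and 6 in KO2, against 49.7% of all genes tested for KO1 and 49.4% for KO2. Their median was -0.12 for KO1 and -0.14 for KO2. None was past 2-fold, against 19.0% of genes for KO1 and 17.3% for KO2. The comparisons of KO1 and KO2 share WT1, so that their likeness is not independent. The lowest ratios to WT1 were those of Trp53inp1, at -0.93 in KO1 and -0.88 in KO2, followed by Mdm2, at -0.78 in KO1 and -0.76 in KO2. The highest were those of Trp53, at 0.30 in KO1 and 0.27 in KO2. With GC and length trends removed, Trp53 stood at 0.04 in KO1 and 0.02 in KO2, and the highest ratios were those of Sesn1 (0.09 in KO1 and 0.12 in KO2). The lowest were then those of Phlda3, at -1.39 in KO1 and -1.41 in KO2, the 1 gene past 2-fold.

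Against WT2, which these comparisons share, more of the ratios lay above 0. For 8 of 10 genes the ratio was above 0 in KO1, against 51.0% of genes tested, and for 8 of 10 in KO2, against 51.3%. Their median was 0.34 in KO1 and 0.34 in KO2. Of the 10 genes 2 were past 2-fold in each, against 33.6% of genes for KO1 and 32.1% for KO2. Phlda3 had log2 ratios to WT2 of 1.13 in KO1 and 1.04 in KO2, and Sesn1 of -1.22 in KO1 and -1.20 in KO2. Trp53 had a ratio to WT2 of 0.34 in KO1 and 0.30 in KO2. After removal of the trends, 6 of 10 genes were above 0 in KO1 and 6 in KO2. Phlda3 then turned to -0.71 in KO1 and -0.73 in KO2, Trp53 to -0.07 in KO1 and -0.08 in KO2 and Sesn2 to -0.32 in KO1 and -0.35 in KO2, while Trp53inp1 stood at 1.11 in both.

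The same ratio was taken between the 2 WT libraries. In WT2 9 of the 10 genes were lower than in WT1, against 50.8% of genes tested, with a median log2 ratio of -0.69 for the set and -0.01 for all genes. The median size of the ratio was 0.75 for the set and 0.45 for all genes. Past 2-fold were 3 of 10, against 18.3% of genes tested. Trp53inp1 had 0.415 times its WT1 level in WT2 (log2 ratio -1.27, 95% counting interval -1.31 to -1.23), and Phlda3 0.417 times (log2 ratio -1.26, interval -1.41 to -1.12). Sesn1 was the exception, at 2.48 times its WT1 level in WT2 (log2 ratio 1.31, interval 1.18 to 1.44). Trp53 had the smallest log2 ratio, -0.04 (interval -0.076 to -0.002). The intervals cover counting error only, since each side of a ratio is a single library. Reads were not collapsed to molecules, so that even this error may be understated. With GC and length trends removed, 8 of 10 genes remained lower in WT2, with a median of -0.56, and Trp53 turned to 0.11. Phlda3 was then within 2-fold, at -0.68, and Ccng1 past it, at -1.08.

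**Figure D3:**
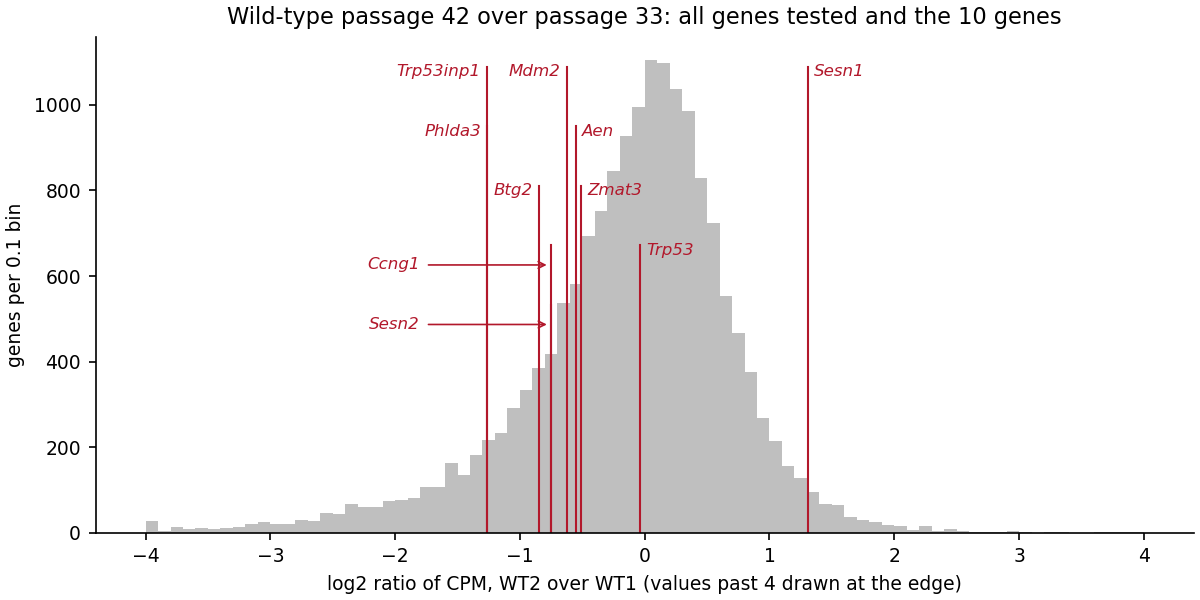
Distribution of the log2 ratio of WT2 over WT1 for all 17022 genes tested, with the 10 genes marked by name. All but Sesn1 lie left of 0, and 3 lie past 1 in size.

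The KO libraries, which carry different deletions, were much closer to each other than the WT libraries were. The log2 ratio of KO1 over KO2 was at most 0.09 in size, for Phlda3, and its median size was 0.03 for the set, against 0.07 for all genes. None of the 10 genes was past 2-fold, against 1.08% of genes tested.

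Levels of different genes were compared only per kilobase of annotated exon, as CPM per kb averaged over the 4 libraries. Trp53 had the highest, 85.8 CPM per kb (75.8 to 95.8 over the libraries), followed by Ccng1 with 75.3 CPM per kb (61.8 to 104.1). These 2 ranges overlap, and Ccng1 was above Trp53 in WT1. Then came Trp53inp1 with 46.0 CPM per kb, Sesn2 with 44.7 CPM per kb and Mdm2 with 29.9 CPM per kb, whose ranges also overlap. Within every library Mdm2 was below Trp53inp1 and Sesn2, though in WT2 only just below Sesn2. The ranges of Btg2 (19.0 CPM per kb), Zmat3 (18.1 CPM per kb), Phlda3 (17.7 CPM per kb) and Aen (15.1 CPM per kb) overlap. Within every library Btg2 and Zmat3 were above Aen, while the other pairs of these genes changed order between libraries. Sesn1 had the lowest mean, 6.22 CPM per kb, but with 10.98 CPM per kb in WT2 it was there above Aen and Phlda3. The exon length joins all annotated isoforms, so that genes with long unused exons read low.

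**Figure D4:**
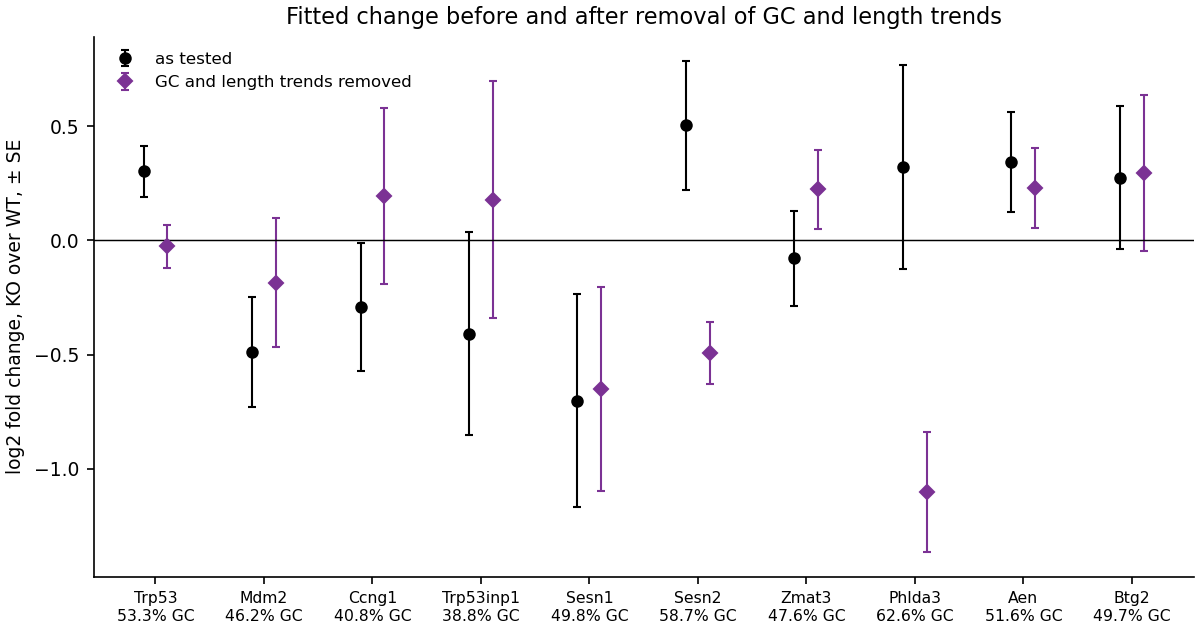
Log2 fold change of KO over WT for the 10 genes as fitted and with GC and length trends of each library removed, with bars of 1 SE and the GC content of the transcripts under each name. Removing the trends moves the GC-rich Phlda3 and Sesn2 below 0 and the GC-poor Trp53inp1 and Ccng1 above 0.

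The transcripts of the set ran from 38.8% GC (Trp53inp1) to 62.6% GC (Phlda3), and removing GC and length trends turned the sign of the fitted change for 6 of 10 genes. Sesn2 and Phlda3, with 58.7% and 62.6% GC, went to -0.49 and -1.10. Trp53inp1 and Ccng1, with 38.8% and 40.8% GC, went to 0.18 and 0.20. Trp53 and Zmat3 went to -0.03 and 0.22. With the trends removed 0 of 10 genes were called, as in the fit without that step. Over all genes tested 0 were called with the trends removed, so that this count says nothing particular to the 10 genes.

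Other genes of the pathway were read as lists chosen by function. Each count of calls is edgeR's unless another tool is named. The edgeR counts stand beside 3.51% of all genes called higher and 1.94% called lower. Those of DESeq2 stand beside 3851 of 17022 genes that it called in both directions together, against 927 for edgeR. Among 9 activators of p53, 0 were called higher and 1 lower, with a median log2 fold change of -0.29, while DESeq2 called 1 higher and 3 lower. The gene edgeR called was Atm, the kinase that signals broken DNA to p53, at 60.06 and 60.72 CPM in the KO1 and KO2 libraries, against 136.7 and 122.0 CPM in the WT1 and WT2 libraries. Its log2 fold change was -1.10 ± 0.13 (edgeR adjusted p = 0.0482). Without the GC and length trends it was -0.57. edgeR called 0 of 7 inhibitors of p53 (4 at an unadjusted p under 0.05), and DESeq2 called 4 lower. All 7 had both KO libraries below both WT libraries (34.8% of genes tested), with a median log2 fold change of -0.59. After removal of the trends their median was -0.27. The inhibitor with the smallest p was Usp7, a protease that takes ubiquitin off MDM2 and p53. Usp7 stood at 569.9 and 585.0 CPM in the KO1 and KO2 libraries, against 854.0 and 881.4 CPM in the WT1 and WT2 libraries (log2 fold change -0.59 ± 0.11, edgeR adjusted p = 0.0564). DESeq2 called it lower (adjusted p = 0.0204), as did edgeR with a minimum count of 50 (adjusted p = 0.0493) and with no expression filter (adjusted p = 0.0486). With the replicate number as a block edgeR did not call it (adjusted p = 0.107). Without the GC and length trends the log2 fold change of Usp7 was -0.18.

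Of 7 further targets that act on the cell cycle, 1 was called higher and 0 lower, with a median log2 fold change of 0.49. That median was -0.01 after removal of the trends. The called gene was Plk3, a stress-responsive kinase, at 50.66 and 50.33 CPM in the KO1 and KO2 libraries, against 15.53 and 14.72 CPM in the WT1 and WT2 libraries. Plk3 rose, with a log2 fold change of 1.74 ± 0.13 and an adjusted p of 0.0482 in edgeR. Without the GC and length trends the difference was 0.68. All 7 genes of this list were lower in WT2 than in WT1 (50.8% of genes tested), with a median log2 ratio of -0.47. Of 8 targets in DNA repair edgeR called 0 (median -0.26, and 0.07 with the trends removed), with 2 at an unadjusted p under 0.05, and DESeq2 called 2 lower. The repair gene with the smallest p was Polh, a polymerase that copies past ultraviolet damage, at 10.11 and 10.44 CPM in the KO1 and KO2 libraries, against 19.11 and 21.08 CPM in the WT1 and WT2 libraries (log2 fold change -0.97 ± 0.16, edgeR adjusted p = 0.0502). DESeq2 called Polh lower (adjusted p = 0.00286), as did edgeR with a minimum count of 50 (adjusted p = 0.0448) and with no filter (adjusted p = 0.036). With the replicate number as a block edgeR did not call it (adjusted p = 0.0581). Without the GC and length trends the log2 fold change of Polh was -0.73 (edgeR adjusted p = 0.0992).

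Among 11 targets in apoptosis 1 was called higher and 0 lower, with a median log2 fold change of 0.09 (-0.03 with the trends removed), while DESeq2 called 3 higher and 3 lower. This was Siva1, a gene that promotes cell death, at 63.01 and 62.55 CPM in the KO1 and KO2 libraries, against 29.88 and 25.52 CPM in the WT1 and WT2 libraries. Its log2 fold change was 1.18 ± 0.15 (edgeR adjusted p = 0.0482). Without the GC and length trends it was 1.06. Among 8 metabolic and other targets 1 was called higher and 0 lower (median -0.10, and 0.10 with the trends removed). It was the secreted stress factor Gdf15, at 7.49 and 7.37 CPM in the KO1 and KO2 libraries, against 2.43 and 1.58 CPM in the WT1 and WT2 libraries (log2 fold change 1.89 ± 0.30, edgeR adjusted p = 0.0499). Without the GC and length trends the log2 fold change of Gdf15 was 0.55.

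Among 12 tested relatives of the 10 genes edgeR called 0 (2 at an unadjusted p under 0.05), with a median log2 fold change of 0.04, and DESeq2 called 1 higher and 1 lower. The lower one was Mdm4, which is also in the list of inhibitors and is counted there as well. The relative with the smallest p was Phlda2, an imprinted relative of Phlda3, at 59.67 and 57.41 CPM in the KO1 and KO2 libraries, against 13.4 and 5.36 CPM in the WT1 and WT2 libraries (log2 fold change 2.64 ± 0.48, edgeR adjusted p = 0.054). Phlda2 was called higher by DESeq2 (adjusted p = 1.15e-07), by edgeR with no filter (adjusted p = 0.0158) and by edgeR with the replicate number as a block (adjusted p = 0.0165). With a minimum count of 50 edgeR did not call it (adjusted p = 0.0516). Without the GC and length trends the log2 fold change of Phlda2 was 1.915 (edgeR adjusted p = 0.102). The imprinted state of these lines was not measured. Of 15 mitotic genes that p53 lowers through the cell cycle inhibitor CDKN1A, 0 were called higher and 1 lower, with a median of -0.34, and DESeq2 called 4 lower. The called gene was Cdk1, the kinase that starts mitosis, at 102.2 and 106.0 CPM in the KO1 and KO2 libraries, against 175.9 and 178.5 CPM in the WT1 and WT2 libraries (log2 fold change -0.77 ± 0.11, edgeR adjusted p = 0.0482). edgeR's calls of Drosha, Atm, Plk3, Siva1, Gdf15 and Cdk1 were lost with GC and length trends removed. They were also lost with library totals or upper-quartile scaling in place of TMM, with the KO libraries summed, and without either KO library. In each of these settings that used all 4 libraries, 0 of all genes tested were called. In the main fit the smallest edgeR adjusted p of any gene was 0.0482, just under the threshold.

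**Figure D5:**
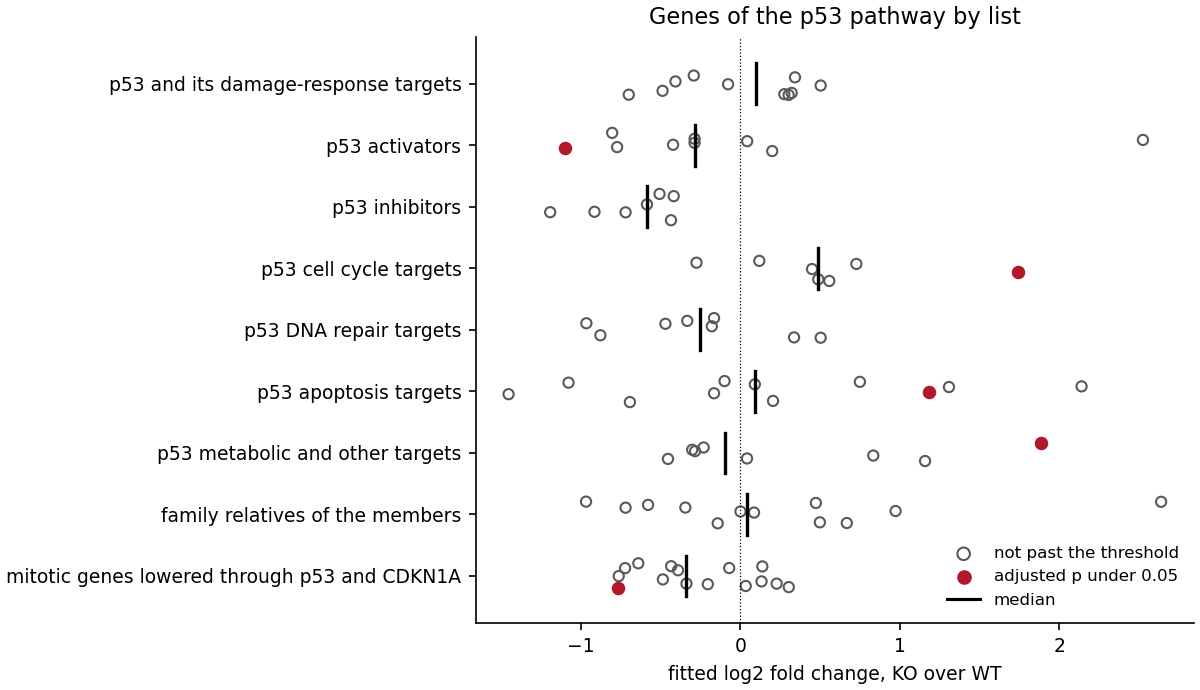
Log2 fold change of KO over WT for the genes of each pathway list and for the 10 genes, 1 point a gene, with the median of each list and called genes marked. All 7 inhibitors lie below 0, while the targets lie on both sides of it.

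Between the WT libraries the medians of the lists ran both ways. The median log2 ratio of WT2 over WT1 was -0.53 for the apoptosis targets and -0.47 for the cell cycle targets, but 0.02 for the DNA repair targets and 0.02 for the metabolic and other targets. It was 0.50 for the inhibitors and 0.31 for the mitotic genes. Primitive endoderm markers also differed between the WT libraries. They summed to 14.8 and 13.3 CPM in the KO1 and KO2 libraries, against 59.5 and 172.5 CPM in the WT1 and WT2 libraries. None of the 7 endoderm markers was at 0 in any library. Neural markers summed to 112.2 and 112.9 CPM in the KO1 and KO2 libraries, against 58.99 and 68.12 CPM in the WT1 and WT2 libraries, with none at 0. Most of that sum was Tubb3, at 73.22 and 71.27 CPM (KO1 and KO2) against 30.48 and 35.55 CPM (WT1 and WT2). Pax6, Nes and Sox1 were also above both WT libraries, while Map2 was below both. With GC and length trends removed the log2 fold changes were 0.151 (Tubb3), 0.031 (Nes), 0.067 (Sox1), 0.048 (Map2) and 2.63 (Pax6). Markers of fibroblasts summed to 48.6 and 44.8 CPM in the KO1 and KO2 libraries, against 33.04 and 26.6 CPM in the WT1 and WT2 libraries. Most of that sum was Thy1. The defining fibroblast genes Dcn, Lum and Postn were at 0 in both WT libraries, and Col3a1 was at 0 in WT2. In the KO1 and KO2 libraries Dcn had 51 and 24 counts, Lum 5 and 3, and Postn 22 and 8. Col3a1 had 47 (KO1), 14 (KO2) and 1 (WT1). Col1a1 had 77 (KO1), 80 (KO2), 45 (WT1) and 14 (WT2) counts, and Col1a2 had 36, 16, 16 and 10 in the same order. The part of these cell types in the levels of the 10 genes was not tested.

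The 3 genes of the lists whose centred log2 CPM over the 4 libraries lay nearest to that of Trp53, out of 73 compared, were Plk1, Foxm1 and Gadd45a. Plk1, a mitotic kinase, had a Euclidean distance of 0.093 and stood at 140.5 and 134.2 CPM in the KO1 and KO2 libraries, against 117.8 and 104.9 CPM in the WT1 and WT2 libraries. Foxm1, a transcription factor of mitotic genes, had a distance of 0.17, and Gadd45a, a p53 target that slows the cell cycle, one of 0.185. With 4 libraries the measure rests on few points. Neither Plk1 (adjusted p = 0.164) nor Gadd45a (adjusted p = 0.503) passed the edgeR test, and Foxm1 did not either (adjusted p = 0.443). The log2 fold changes of Plk1 and Foxm1 turned to -0.38 and -0.34 with GC and length trends removed.

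As DROSHA is needed for most microRNAs, the 3' untranslated regions of the 10 genes were read for seed matches of 2 microRNAs, miR-294-3p, which is abundant in embryonic stem cells, and miR-34a-5p, a product of a p53 target gene. Their mature RefSeq sequences are shown with the seed, bases 2 to 8, in capitals.
miR-294-3p, chr7:3220691-3220712, plus strand, GRCm38.p6: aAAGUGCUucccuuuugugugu
miR-34a-5p, chr4:150068473-150068494, plus strand, GRCm38.p6: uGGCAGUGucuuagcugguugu
The match of the miR-294-3p seed, AGCACTT, occurred once each in Ccng1, Trp53inp1, Sesn2 and Zmat3, and in 14.6% of all 21105 genes with such a region. In genes with regions of like length (within 20%) the share was 24.6% for Ccng1, 41.0% for Trp53inp1, 17.8% for Sesn2 and 56.9% for Zmat3. The match of the miR-34a-5p seed, CACTGCC, occurred once each in Sesn1 and Aen, and in 14.3% of all genes. In genes with regions of like length the share was 12.3% for Sesn1 and 31.0% for Aen. The sites are given with the bases before them, because these are the letters a microRNA could pair with, and the matches are in capitals.
Ccng1, miR-294-3p: gtagttactgaaatAGCACTTc
Trp53inp1, miR-294-3p: agaatgaacagcacAGCACTTt
Sesn2, miR-294-3p: agccaccaccgacaAGCACTTt
Zmat3, miR-294-3p: ctgtgggtttccgaAGCACTTg
Sesn1, miR-34a-5p: ttactgtgggatctCACTGCCt
Aen, miR-34a-5p: tgctgtcacttgatCACTGCCt
Of the 4 genes with a miR-294-3p match, Sesn2 was above both WT libraries in the knockouts, and Ccng1, Trp53inp1 and Zmat3 lay between them. None passed the test. Poly(A) counts do not measure mature microRNAs. The gene rows of the miR-34 family held few counts: Mir34a had 4 (KO1), 7 (KO2), 2 (WT1) and 0 (WT2). Mir34b and Mir34c had 0 in every library, which allows up to 3 counts in each.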

How the data were processed

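Raw read counts per Ensembl gene, as deposited by the authors for 4 libraries, were used with no normalisation by the authors. Per the submitters' processing notes, the tools were STAR 2.4.2a for alignment and featureCounts 1.4.5-p1 for counting, with genome mm10. Which annotation was counted, and how reads over several genes or places were treated, is not given in the sources used here. Libraries came from a reverse-stranded TruSeq protocol on 1 ug of total RNA, per the labels' protocols. A name table gave a symbol to 42462 of 43629 identifiers (97.3%). No measured gene shared exons with any of the 10 genes in the GENCODE M21 annotation, which also gave coordinates, exon lengths and GC content, and Wrap53 ends 104 bases before Trp53.

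The test was edgeR's quasi-likelihood test (version 4.0.16, R 4.3.3) on a model with group as its only term. It used TMM scaling and the default expression filter, with a count minimum of 10 and a minimum of 15 in total. P-values were adjusted by Benjamini-Hochberg over 17022 genes, at a threshold of 0.05. Library ratios used CPM with a prior count of 2 and exact 95% counting intervals. One count was worth 0.0236 to 0.0342 CPM before scaling. Within pairs, the chi-square of genes having 50 counts or more was 2.26 per degree of freedom for KO1 and KO2 and 167 for WT1 and WT2, so that the KO libraries differed beyond counting noise and were kept as 2 samples. GC and length trends were fitted per library by lowess on log2 CPM with span 0.3, for the 16903 genes tested (99.3%) that had both values. Alternatives were DESeq2 1.42.0, other scalings and filters, each library left out, the KO libraries summed, a replicate block and removal of the trends. The count test was checked on simulated data.

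The 10 genes, the lists and the tests were chosen with earlier results of these data known. Named without regard to values were the 10 genes and Drosha. From each other list came up to 2 called genes in each direction with the smallest p, or else the gene with the smallest p, and 3 genes nearest to Trp53. Markers were given as sums, and some were also named singly. Other genes named were singled out after their values were seen, for their position or, for Mdm4, for a shared place in the lists. The markers among them were Col1a1, Col1a2, Col3a1, Dcn, Lum, Postn, Thy1, Pax6, Tubb3, Nes, Map2, Sox1, Pou5f1, Sox2, Klf4 and Esrrb. The rest were Mdm4, Trp53-ps, Gm12981, Wrap53 and the miR-34 genes. Plots were drawn with matplotlib 3.10.9, and sequences were searched in Python 3.11.15 (pandas 2.3.3, scipy 1.17.1, numpy 2.4.6). No protein sequence was used here.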

Additional observations from a re-analysis of the deposited data

How the results depend on the processing

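Counts of calls depended on the setting, while 0 of 10 genes were called under every alternative that kept all 4 libraries. Over all genes, 927 were called, against 3851 with DESeq2, 1478 with a minimum count of 50 and 2663 with no expression filter. The count was 0 with library totals, with upper-quartile scaling, with the KO libraries summed and with GC and length trends removed. In those settings 0 of the 10 genes followed from the 0 over all genes. Leaving out a library gave 0 to 13658 called genes (0 without KO1, 22 without KO2, 13658 without WT1 and 12089 without WT2) and 0 to 10 of the 10 genes (0 without either KO library, 10 without WT1 and 8 without WT2). Without a WT library the lone one is assumed to vary like the KO pair, which is nearly alike.

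The labels do not say that libraries of equal replicate number share anything. Deviations of KO1 and WT1 from their group means correlated at 0.0461 over 17022 genes. As the KO libraries differed little, this value cannot show whether equal numbers share something. A replicate block called 1929 genes and 0 of the 10, and with trends removed as well it called 0 genes; it ended the call of Cdk1 (adjusted p = 0.0539).

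Of 130 log2 fold changes of the 10 genes under an alternative, 97 kept direction and side of the threshold and 19 turned. With GC and length trends removed, and with the replicate block as well, Trp53 had -0.026 and -0.025, Ccng1 0.20 and 0.29, Trp53inp1 0.18 and 0.36, Sesn2 -0.49 and -0.48, Zmat3 0.22 and 0.24, Phlda3 -1.10 and -1.06, Plk1 -0.38 and -0.38, and Foxm1 -0.34 and -0.34. Library totals turned Zmat3 to 0.055. Leaving out a library gave -0.61 to 0.13 for Ccng1, -0.90 to 0.36 for Trp53inp1, -1.21 to 0.11 for Sesn1, -0.30 to 0.20 for Zmat3, -0.17 to 1.08 for Phlda3 and -0.078 to 0.76 for Btg2. The cause of these turns was not tested. Library totals moved the median of all genes to 0.13, against -0.02 with TMM. Of the 10 genes, 3 lay outside the WT range with library totals, and 4 with upper-quartile scaling. With the trends removed 4 did, of which 1 (Aen) lay outside on the same side with TMM. The lowest count of the 10 genes was 519, and counting error was small beside the spread of the WT libraries for every gene but Trp53. For Trp53 the log2 ratio of WT2 over WT1 was -0.039, with a counting interval of -0.076 to -0.002. Having 2 libraries a group limits the test.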
